A study of Schizosaccharomyces pombe with 24 samples.

Results

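The introns within coding sequences of the fission yeast Schizosaccharomyces pombe were taken from a genome annotation that the authors deposited with a set of chromatin immunoprecipitation sequencing libraries. An intron here was a gap between successive coding segments of the first transcript of a gene on chromosomes I, II and III. The rule gave 5051 introns, out of 5172 such gaps in transcripts of any type, and they lay in 2380 of 5113 protein-coding genes. No expression or read value entered the choice.

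The series held 24 libraries, made with antibodies against histone H3 dimethylated (9me2) or trimethylated (9me3) at lysine 9, from log-phase cells grown in YEA. In 14 libraries the cells carried ura4D::10xteto-ade6+, the ectopic reporter, in the genotypes clr4D, swi6D, swi6Dmst2D, swi6Dset1D, swi6Dmst2Dset1D, mst2Dset1D and WT. In 10 libraries they carried cenHD::10xteto-ade6+, the endogenous reporter, in swi6D, swi6Dmst2D, swi6Dset1D, swi6Dmst2Dset1D and WT. Each combination of genotype, reporter and antibody was 1 library, and histone methylation was not analysed here. The files used were 2 annotations, one for each reporter site, and the introns come from the one for the endogenous site. They list where features start and end and hold no value per library, so the results describe annotated gene structure and no comparison of genotypes was possible.

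Introns are cut out of the primary transcript by the spliceosome, a machine of small nuclear RNAs and proteins. It recognises the 5′ splice site, a branch-point adenosine inside the intron and the 3′ splice site. Fission yeast is known for having many short introns, and for keeping heterochromatin, RNA interference and splicing factors that budding yeast lacks. An intron can fall between codons (phase 0), after the first base of a codon (phase 1) or after its second base (phase 2).

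The bases of 5028 introns could be read from ASM294v3, and a few are shown because the later results refer to them. Each is written 5′ to 3′ on the strand of its gene. Capitals mark the first 6 bases, the last 3 bases and, where its adenosine at base 4 lies in the last 40 bases, the last match to the branch motif CTAAC or to its variants CTAAT and also CTGAC and also CTGAT. The introns of cdc2, which encodes the cyclin-dependent kinase of the cell cycle, show an ordinary gene with several introns (chromosome II, plus strand, from base 1500377 for the first intron to base 1501447 for the end of the last). Both introns of mst2 are shown because the study deleted this gene, which encodes a histone H3 acetyltransferase (chromosome I, minus strand, 2366265 to 2366380 and 2366128 to 2366174). The smb1 intron, in a gene for a core spliceosomal Sm protein, directly follows the start codon (chromosome I, plus strand, 3347056 to 3347120). The intron of SPAC24B11.14 was the shortest above the few gaps of 11 bases or less (chromosome I, plus strand, 230800 to 230829).
cdc2 intron 1 of 4: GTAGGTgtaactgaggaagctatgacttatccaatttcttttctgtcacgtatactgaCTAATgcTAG
cdc2 intron 2 of 4: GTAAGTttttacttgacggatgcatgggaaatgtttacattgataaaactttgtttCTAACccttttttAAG
cdc2 intron 3 of 4: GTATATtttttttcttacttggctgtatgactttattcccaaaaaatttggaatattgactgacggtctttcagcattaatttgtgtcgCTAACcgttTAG
cdc2 intron 4 of 4: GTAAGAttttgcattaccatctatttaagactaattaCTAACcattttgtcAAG
mst2 intron 1 of 2: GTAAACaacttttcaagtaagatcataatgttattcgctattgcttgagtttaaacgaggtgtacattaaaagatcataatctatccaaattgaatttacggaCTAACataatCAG
mst2 intron 2 of 2: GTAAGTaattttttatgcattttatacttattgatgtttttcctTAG
smb1 intron 1 of 1: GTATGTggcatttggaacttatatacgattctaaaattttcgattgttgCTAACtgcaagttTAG
SPAC24B11.14 intron 2 of 2: GTAGTTaacaaacatactctaaacttaTAG

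Fewer than 1 in 2 genes had a coding intron. The share was 46.5% (2380 of 5113 genes, exact binomial 95% interval 45.2 to 47.9). Among them, 1062 genes had 1 intron, 657 had 2, 332 had 3, 163 had 4 and 166 had 5 or more. Genes with an intron carried 2.12 introns on average, and the intron bases made up 5.47% of all coding and intron bases. All intervals on shares cover counting over annotated features only, since introns are not replicates of a condition.

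The shares differed little between chromosomes and strands. On chromosome I 45.7% of genes had an intron (43.6 to 47.7), on II 48.3% (46.0 to 50.6) and on III 45.3% (42.0 to 48.6), and these intervals overlapped. On the plus strand it was 47.3% of genes and on the minus strand 45.8%. Short coding sequences were the richest in introns. With genes ordered by coding length into 4 classes of nearly equal size, the share with an intron was 53.3% in the shortest (up to 675 bases), 46.9% and 43.5% in the middle classes and 42.4% in the longest (1755 bases and more). Every class held between 1230 and 1322 introns, and the density from the shortest class to the longest was 2.27, 1.06, 0.678 and 0.365 introns per kb of coding sequence.

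Only 10 genes had 10 introns or more. The most, 15, were in trt1, which encodes the catalytic subunit of telomerase. They were 36 to 71 bases long and took 18.5% of the gene from start to stop codon. The recombination factor gene rdh54 had 14 introns and clr6, for an essential histone deacetylase, had 13. The clr6 introns took 34.2% of its span, the highest share of these 10 genes. The potassium transporter gene trk2 and gem1, for a mitochondrial GTPase, had 12 each. The peptidase gene icp55, the kinase gene ppk26 and lig4, for the DNA ligase of end joining, had 11 each. The septation kinase gene cdc7 and ers1, for an RNA interference factor of heterochromatin, had 10. Gene by gene, the median of their introns was 38.5 to 47.5 bases long, below the median of all introns.

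**Figure D1:**
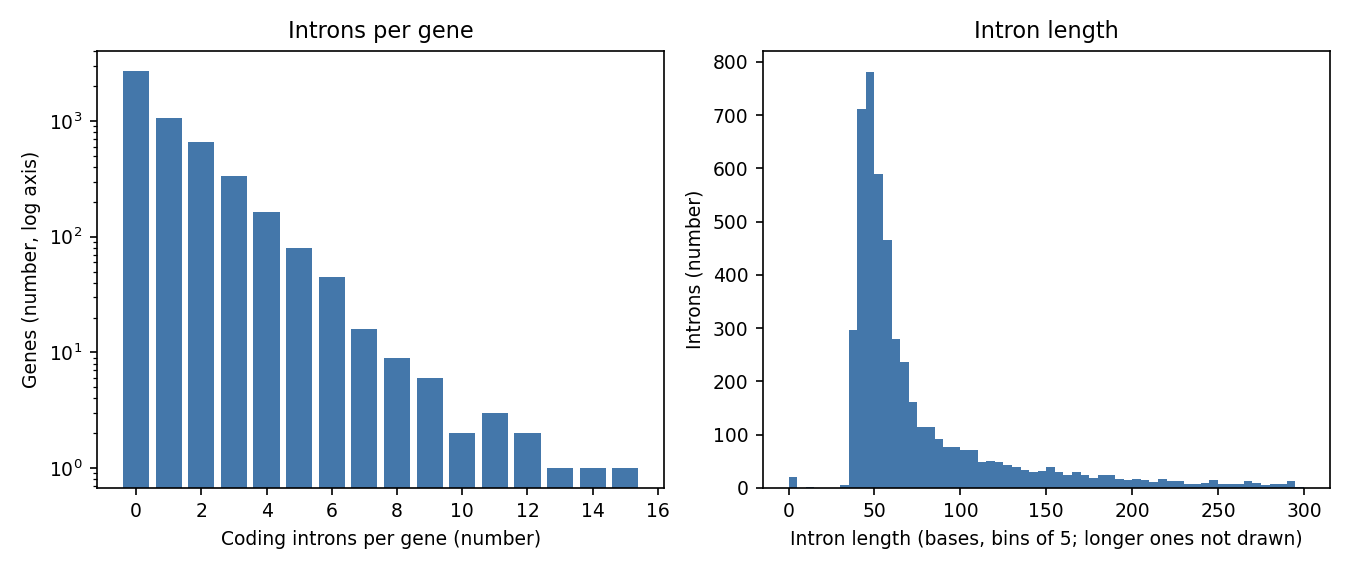
The left panel gives the number of genes (log axis) by the number of coding introns, and the right panel the number of introns by length in bins of 5 bases up to 300 bases. Genes without an intron were the largest class with 2733, and most introns lay between 40 and 60 bases, with a separate small bar of gaps of 1 or 2 bases at the left edge.

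Introns were short and their lengths were tightly packed at the low end. The median was 55 bases, with quartiles of 46 and 85 bases and a 90th percentile of 157 bases. Introns of 40 to 60 bases made up 51.5% (50.1 to 52.9), and those of up to 100 bases 80.0%. The commonest lengths were 45 and 46 bases, with 164 introns each. Only 308 introns (6.10%) were longer than 200 bases and 20 were longer than 500 bases.

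The 5 longest introns measured 837 bases in the fatty acid elongase gene elo1, 817 in gnd1 for 6-phosphogluconate dehydrogenase, 784 in the citrate synthase gene cit1, 756 in prr1 for a stress transcription factor, and 717 in rad25 for a 14-3-3 protein. All of these lay in the first 11.4% of the coding sequence. At the other end, 21 gaps were 1, 2 or 11 bases long (13 of 1 base, 7 of 2 and 1 of 11), and the next shortest measured 30 bases. The short gaps lay in 19 genes, and in 13 of these they were the only gaps. They met the rule and are counted here, and no sequence was read for them. The 5 shortest of the others were 30 bases in SPAC24B11.14, 31 in gpi18 of the GPI anchor pathway, 32 in the vacuolar ATPase gene vma11, 33 in SPAC26A3.14c and 34 in the nuclear pore gene nup131.

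Genes with more introns had shorter ones. The median length was 66 bases (95% interval of the median 63 to 69) in genes with 1 intron, 58 in genes with 2, 56 with 3, 52 with 4, 51 with 5, and 47 (46 to 48) in genes with 6 or more. By order from the 5′ end the median was 58 bases for first and second introns, 53 for introns of order 3, 50 for order 4, 49 for order 5 and 46 from order 6 on. Later orders exist only in genes with many introns, so order and number move together here. Within genes of 2 or more introns the first had a median of 54 bases (53 to 55) and the last 56 (55 to 58). Along the coding sequence, cut into 10 equal bins from the 5′ end, introns in bins 2 and 3 were the longest, with medians of 63 and 66 bases, against 55 in bin 1 and 50 in bin 10.

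Lengths divisible by 3 were not set apart by much. They numbered 1623 (32.1%, 30.8 to 33.4), against 1728 with a remainder of 1 and 1700 with a remainder of 2.

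Introns lay towards the 5′ end of the coding sequence. Position was measured as the coding bases before the intron over the coding length. With the coding sequence cut into 10 equal bins from the 5′ end, bin 1 held 27.1% of introns, bin 2 held 17.4%, bin 3 held 10.0%, and each later bin held between 5.78% and 8.08%. Cut into 3 equal parts, the 5′ part held 57.3% (56.0 to 58.7), the middle part 21.8% and the 3′ part 20.8%.

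The lean to the 5′ end was present in genes with 1 intron and in those with many. In single-intron genes 67.3% (64.4 to 70.1) lay in the 5′ part of these 3, with a median position of 15.5%. In genes with 5 or more introns it was 48.3% (45.2 to 51.4), still above the shares of the middle part (24.9%) and the 3′ part (26.8%). First introns were in the 5′ part in 78.3% of cases and later introns in 38.6%. The median first intron followed 108 coding bases, and 353 first introns followed 30 or fewer.

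**Figure D2:**
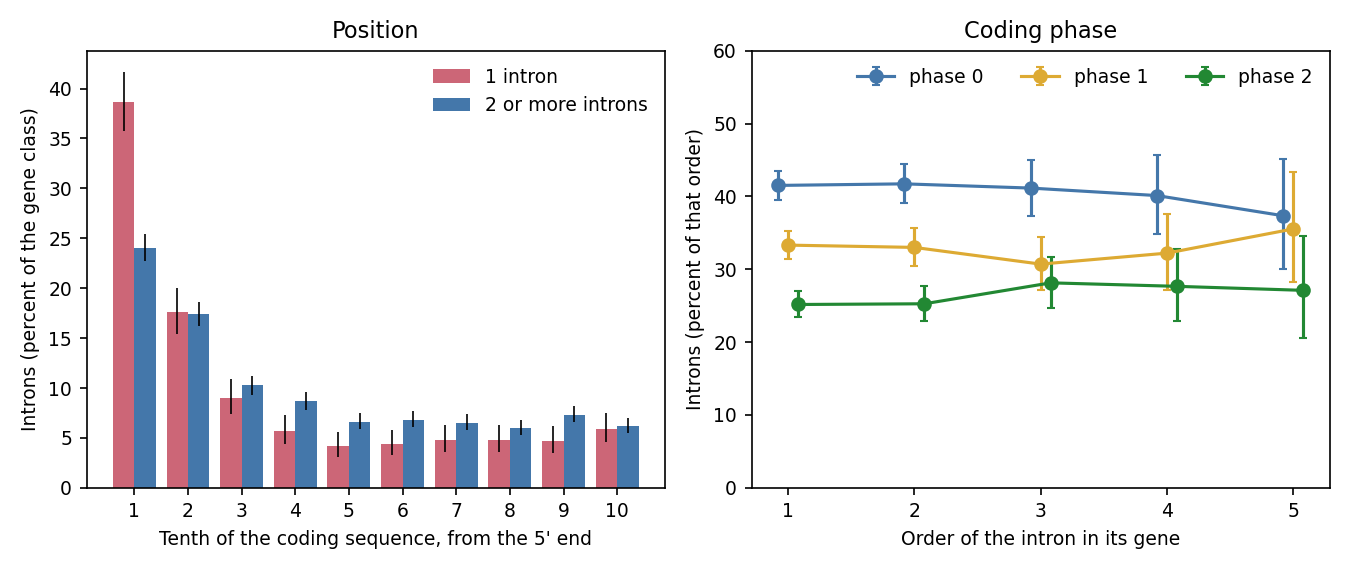
The left panel gives the percent of introns in each of 10 equal bins of the coding sequence from the 5′ end, for genes with 1 intron and with 2 or more, and the right panel the percent in each coding phase by the order of the intron in its gene; error bars are exact binomial 95% intervals. In both gene classes bin 1 is the highest (38.7% and 24.1%), and phase 0 has the highest share at every order shown.

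Some introns interrupted or touched the start codon. In trr1, for thioredoxin reductase, an intron of 299 bases followed the first base of the start codon. In cit1, in exo70 of the exocyst and in mpc1 for the mitochondrial pyruvate carrier, the intron followed its second base, with lengths of 784, 50 and 40 bases. Directly after the start codon lay 42 introns, among them the smb1 intron printed above, of 65 bases. Of these 42, 9 were in genes named rpl or rps, which encode proteins of the large and small ribosomal subunits and carry 76 introns in all. No intron left only 1 or 2 coding bases behind it, and 1 gap, of 1 base in utp18, left 3.

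The same positions can be read as exon lengths. The first coding exon is the stretch before the first intron, so its median is the same 108 bases. Internal exons had a median of 135 bases and the last exon 438 (95% interval of the median 409 to 466). Genes without an intron had a median coding length of 1197 bases. Internal exons of under 10 bases numbered 14, and 49 were under 20. The shortest was an exon of 3 bases in trk2, and dtd1, mug16, rmt1 and ubc1 each had one of 4 bases.

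Introns fell between codons more often than within them at either position. Phase 0 held 41.6% of introns (40.2 to 42.9), phase 1 32.5% (31.3 to 33.9) and phase 2 25.9% (24.7 to 27.1). The order of the phases did not change between first introns, with 41.5%, 33.3% and 25.2%, and later introns, with 41.6%, 31.9% and 26.5%. Median lengths were 56, 55 and 55 bases in phases 0, 1 and 2. Phase was counted from the coding bases before each intron, because the phase column of the deposited annotation read 0 in 10181 of 10182 coding segments. In ASM294v3, where that column varied, it gave the same phase in 5047 of 5047 introns. The column describes the same coding segments, so this checks the count and is not independent evidence of the phases. Internal exons with a length divisible by 3, flanked by introns of equal phase, numbered 986 of 2671 (36.9%, 35.1 to 38.8). The product of the phase shares on the 2 sides gives 34.4%. Exons of the wtf genes, related copies described below with 73 of 74 introns in phase 1, are counted among the 986.

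Nearly all introns had the standard splice sites. Of 5028 introns, 5021 (99.9%) began with GT and ended with AG. The first 6 bases were GTAAGT in 27.5% and GTATGT in 19.99%, followed by GTAAGA (6.54%) and GTACGT (5.25%). The pattern GTANGN, which covers all of these, was present in 81.3% (80.2 to 82.4), and 109 different runs of 6 bases occurred. The last 3 bases were TAG in 68.6% of introns, CAG in 19.0% and AAG in 12.3%, while GAG ended 7 introns. The last exon base before the intron was G in 56.6%.

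The 6 introns that opened with GC and the 1 that ended in AA are of interest because they depart from this pattern. The GC introns lay in alp21, for a tubulin folding cofactor, sce3, for a translation initiation factor, vhc1, the exon junction gene mnh1, the poly(A) polymerase gene pla1 and the centromere gene mis18. Their first 6 bases were GCATGT in alp21, vhc1 and mis18, while sce3 and mnh1 had GCAAGT and pla1 had GCAAGA. The AA intron was in SPBC3D6.16. Shown are the GC introns and the AA intron, with capitals as above, to let the departure be read beside the branch motif. Of the 6 GC introns, 4 had CTAAC, mis18 had CTAAT and sce3 had no match. They are on chromosome I, plus strand, 2390690 to 2390735 (alp21), on chromosome II, minus strand, 1776857 to 1776893 (sce3), plus strand, 1798755 to 1798800 (vhc1), minus strand, 4002182 to 4002223 (mnh1), plus strand, 930445 to 930487 (pla1) and plus strand, 1296964 to 1297021 (SPBC3D6.16), and on chromosome III, minus strand, 514093 to 514166 (mis18).
alp21 intron 3 of 4: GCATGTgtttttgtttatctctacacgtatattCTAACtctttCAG
sce3 intron 1 of 3: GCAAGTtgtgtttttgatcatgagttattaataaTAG
vhc1 intron 1 of 1: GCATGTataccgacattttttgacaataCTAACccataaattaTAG
mnh1 intron 5 of 6: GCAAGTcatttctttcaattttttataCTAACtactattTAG
pla1 intron 1 of 3: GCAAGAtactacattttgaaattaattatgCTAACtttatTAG
mis18 intron 5 of 5: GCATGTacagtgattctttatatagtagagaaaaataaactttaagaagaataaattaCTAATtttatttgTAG
SPBC3D6.16 intron 1 of 1: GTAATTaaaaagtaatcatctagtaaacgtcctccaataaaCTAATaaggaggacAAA

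A branch motif stood close to the 3′ end of most introns. The motif CTAAC occurred in the last 30 bases of 44.2% of introns (42.8 to 45.5), on the coding strand. On the other strand of the same bases it occurred in 2.13%, and in 1.46% of all 235944 consecutive windows of 30 bases in coding sequence. The set of 4 motifs named above, chosen after the sequences were seen, was found in 74.3% of introns, in 14.4% on the other strand and in 9.22% of coding windows. The looser pattern CTNAN was found in 84.8% of introns, in 53.4% on the other strand and in 36.3% of coding windows. In 3776 introns one of the 4 motifs had its base 4 in the last 40 bases, and the last one was CTAAC in 56.9% of them and CTAAT in 32.9%.

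The adenosine at base 4 of the motif lay a short distance from the end. The median was 11 bases to the last intron base, with quartiles of 9 and 13, and 10th and 90th percentiles of 8 and 16. In cdc2 the 4 introns printed above had distances of 6, 12, 8 and 13 bases, and in mst2 the first intron had 9 while the second had no match. Another AG stood between the motif and the final AG in 12.5% of these introns. A match describes letters only, and no match says only that these letters are not in this window.

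**Figure D3:**
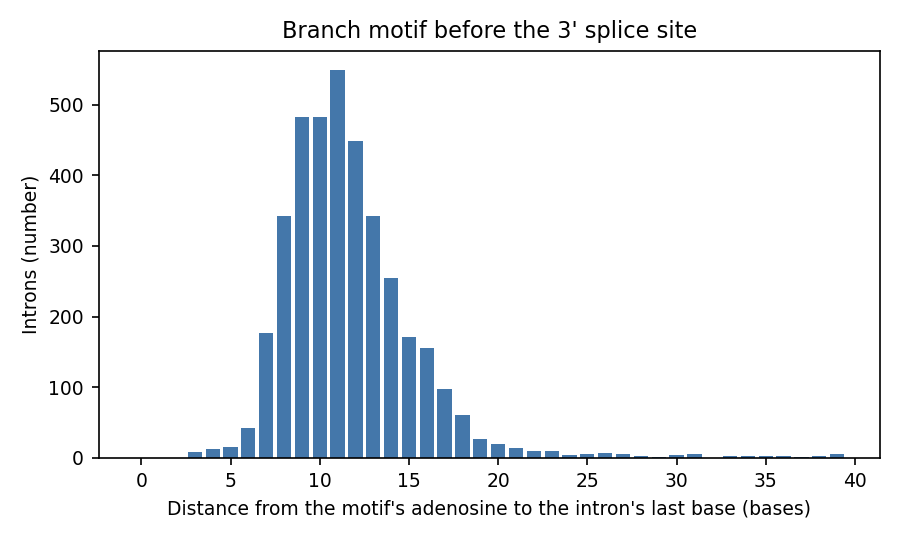
Number of introns by the distance, in bases, from base 4 of the last branch motif (set of 4) to the last base of the intron, for introns with that base in the last 40 bases. The counts peak at 11 bases with 549 introns and are low under 7 and over 18 bases.

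Introns were poorer in G and C than the coding sequence around them. The GC content was 29.6% over all intron bases and 39.1% over the coding sequence of the same genes. T made up 39.5% of intron bases and 30.2% of coding bases. Introns over 100 bases had 30.8% GC and shorter ones 28.5%.

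Most introns would put a stop codon into the message if they were kept in it. Read in the frame of the upstream exon, 13.8% (12.9 to 14.8) of the 5028 introns held no stop codon. With the frame shifted by 1 or by 2 bases the shares were 13.9% and 14.0% of 5027 introns. Taken over all introns, the share without a stop codon was thus nearly the same in every frame. By length the frames differed. For lengths divisible by 3 the shifted frames lacked a stop in 14.4% and 13.5%, against 9.80% in the frame of translation. With a remainder of 1 they lacked one in 15.1% and 13.4%, against 16.6%. With a remainder of 2 the shares were 12.2% and 15.0%, against 14.9%. In the frame of translation, introns with a length divisible by 3 lacked a stop codon in 9.80% (8.40 to 11.4, 159 of 1622), against 15.7% of the 3406 other introns (535). By phase, the difference was present in phase 0, where 5.39% of those divisible by 3 lacked a stop, against 21.0% with a remainder of 1 and 22.3% with a remainder of 2. In phase 1 the shares were 16.4% for lengths divisible by 3, 21.7% for a remainder of 1 and 6.30% for a remainder of 2, and in phase 2 they were 8.80%, 2.33% and 13.1%, so the lowest class differed by phase. The 159 introns, in 147 genes, would leave the reading frame open, and they made up 3.16% of all introns with sequence. Intron 4 of cdc2, of 54 bases, was one of them. The longest were 156 bases in zas1, for a transcription factor, and in mug184. Next came 108 bases in the cap-binding gene cbc2 and 105 in each of yip11 and yip12.

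The splice sites themselves supplied many of these stop codons. In a phase 2 intron the frame reads intron bases 2 to 4 as a codon, and this was a stop in 716 of 1300 (55.1%). Of these 716, 660 began GTAA, where bases 2 to 4 are the stop TAA by definition. Phase 2 introns lacked a stop in 8.08%, against 16.5% in phase 0 and 15.0% in phase 1. At the 3′ end the last 3 bases formed a codon of the frame in 1637 introns, of which 68.8% ended in TAG. By phase they were the 668 of phase 0 divisible by 3, 540 of phase 1 (remainder 2) and 429 of phase 2 (remainder 1). In each phase this was the class above that most rarely lacked a stop. Such introns made up 41.2% of introns divisible by 3, 25.01% of those with a remainder of 1 and 31.9% with a remainder of 2. In a count chosen after seeing the data, only codons wholly inside the intron without its first 6 and last 3 bases were read. Then 22.4% (20.4 to 24.6) of introns divisible by 3 held no stop, against 25.3% (23.9 to 26.8) of the others. The share was still lower in those divisible by 3. The intervals overlapped, which does not exclude a difference, and none was tested.

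**Figure D4:**
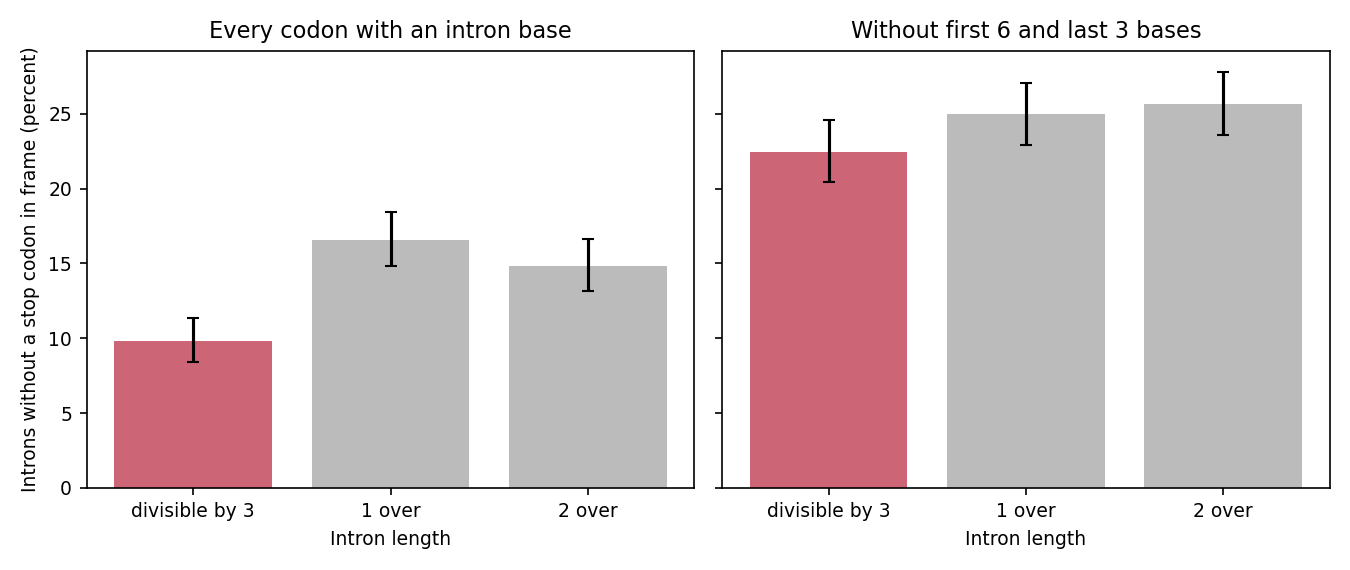
Percent of introns with no stop codon in the frame of translation, by the remainder of the intron length on division by 3, with exact binomial 95% intervals. With every codon counted (left) introns divisible by 3 have the lowest share over all phases together, 9.80%, though not within phases 1 and 2, and without the first 6 and last 3 bases (right) the intervals of the classes overlap, with 22.4% in introns divisible by 3.

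Among the 4 chromatin factor genes deleted in these strains, only mst2 had coding introns. The heterochromatin protein gene swi6, the H3K9 methyltransferase gene clr4 and the H3K4 methyltransferase gene set1 had none. The mst2 introns measured 116 and 47 bases, both in phase 0, after 453 and 543 coding bases. Of 27 listed heterochromatin and RNA interference genes, 9 (33.3%, 16.5 to 54.0) had an intron, against 46.5% of all genes, whose interval overlaps. The list was planned as one of spliced genes, though most members had no coding intron, so its share is not a free comparison. The genes with most introns in this list were ers1 with 10, dsh1, for a factor of RNA interference, with 8, and the Argonaute partner gene arb2 and the deacetylase gene sir2 with 5 each. The sir2 introns were 41 to 163 bases long. A second Argonaute partner gene, arb1, had 4 introns, the Argonaute gene ago1 had 1 of 371 bases, hrr1, for an RNA helicase, had 3 of 41, 42 and 48 bases, and the HP1 gene chp2 had 1 of 37. The remaining genes had none, among them dcr1 for Dicer, rdp1 for the RNA-dependent RNA polymerase, chp1, rik1, clr3 and epe1. The list had a median intron length of 46 bases, against 55 for all introns. Of its 39 introns, 10 were in ers1 and 8 in dsh1. Over all genes, introns of genes with 6 or more had a median of 47 bases. The ers1 introns were 36 to 55 bases long and the dsh1 introns 40 to 70, so both genes had introns above and below the median of the list.

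Among 42 splicing genes, 26 (61.9%, 45.6 to 76.4) had introns, with 1.60 per gene and a median of 53 bases. The splicing regulator gene srp2 had the most of them, 9, and all 7 listed Sm genes had 1 to 3, while prp43, brr2 and spp42, for the helicases and the large scaffold protein of the spliceosome, had none. All 10 genes listed for regulated splicing in meiosis had introns, 2.2 per gene with a median of 50 bases. Of them crs1, for a meiotic cyclin, had 41, 40, 52 and 48 bases, and the cohesin gene rec8 had 43, 52, 52 and 40. The classic list held 14 long-studied genes, planned as classic intron genes, such as those for tubulin, actin and cell cycle regulators. Of these, 10 had introns, with a median of 79 bases. They include nda3 for beta tubulin with 5, and cdc42 for a small GTPase with 2 of 163 and 430 bases, while act1, atb2, cdc13 and cdc25 had none. Genes of ribosomal proteins had an intron in 66 of 131 cases (50.4%, 41.5 to 59.2) and 0.580 introns per gene, against 0.988 for all genes, with a median length of 78 bases. Per kb of coding sequence they had 1.16 introns, against 0.706 for all genes. In these genes 52.6% of introns were in phase 0, against 41.6% of all introns. The shares describe these lists only. The classic, meiotic and heterochromatin lists were planned around introns or splicing, so their shares of genes with introns were partly set by that choice.

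**Figure D5:**
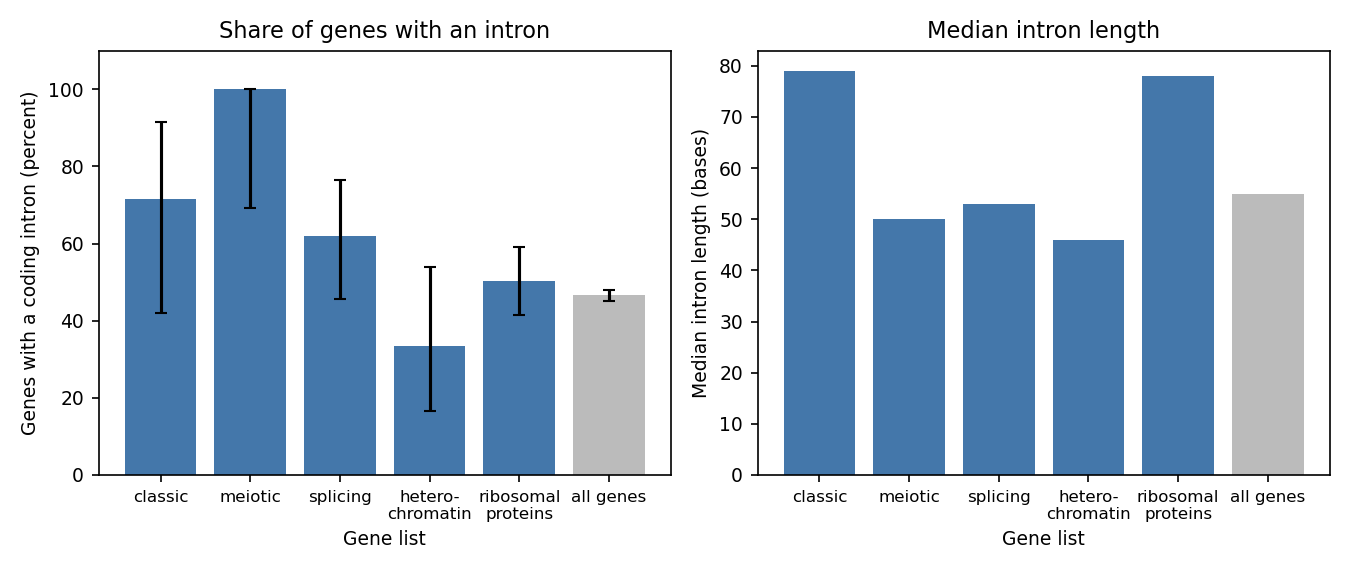
Percent of genes with a coding intron (left, with exact binomial 95% intervals) and median intron length in bases (right) for 5 gene lists and for all genes (grey). The heterochromatin list has the lowest share (33.3%) and the lowest median (46 bases), and the classic and ribosomal protein lists the highest medians (79 and 78 bases). Of the 39 introns of the heterochromatin list, 10 are in ers1 and 8 in dsh1. The classic, meiotic and heterochromatin lists were planned around introns or splicing, so their shares are not comparable with all genes.

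Some introns held other genes. Lying wholly inside an intron were 7 small nucleolar RNAs and snR48, which the annotation types as a small nuclear RNA, and all 8 ran on the strand of the host gene. Their hosts were ipa1, nog2, SPAC29A4.02c, rlp7, rpl701, gua1, cpc2 and rps3, several of which encode ribosomal proteins or ribosome assembly factors. The host introns were 217 bases (rlp7) to 481 bases (ipa1) long, all among the 308 introns over 200 bases, and 82 to 122 bases separated the small RNA from the 3′ end of the intron. A further 2 long non-coding RNAs lay on the opposite strand inside introns of rps1701 and dph7. Long non-coding RNAs on the opposite strand covered 43.2% of intron bases and 47.9% of the coding bases of the same genes.

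Introns were also listed near the reporters. Among genes that reach within 20 kb of the endogenous reporter, on chromosome II, 5 of 13 had introns, against 46.5% of all genes, and they had 9 in all: rpt6 (42 bases), rpp202 (46), emc3 (39, 48, 205 and 45), mtd1 (115 and 52) and aha1 (375). The nearest, in rpp202, which encodes an acidic ribosomal protein, was 6966 bases from the reporter. Among genes that reach within 20 kb of the ectopic reporter, on chromosome III in the annotation for that site, 5 of 19 had 8 introns. They lay in sen54, of the tRNA splicing endonuclease, in the repair gene rhp7, and in SPCC330.19c, SPCC330.03c and tam14. The tam14 introns, of 66 and 57 bases, were 142 and 341 bases from the reporter feature.

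The annotations of the 2 sites gave almost the same introns. Matched by identifier, 5045 genes had the same intron lengths in the same order in both, 50 differed and 18 were not found in the annotation for the ectopic site, which held 5066 introns by the same rule. Of the 50, 14 had more introns in the endogenous-site annotation, 24 had fewer and 12 had the same number with other lengths. In 20 of them a gap of 1 or 2 bases or an overlap of coding segments was part of the difference. The largest difference was in qtr2, with 1 intron in the endogenous-site annotation and 6 in the ectopic-site annotation. Others were the meiotic recombination gene rec6 with 3 against 1, crd1 with 6 against 4, the mitochondrial import gene tom7 with 3 against 1, and zas1 with 9 against 8, where the intron of 156 bases is the one left out. In the authors' annotation of the endogenous site it is also absent from the second transcript of zas1, and it is one of the introns above with an open frame.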

How the data were processed

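The authors deposited 2 genome annotations for the 24 libraries, with coordinates in bases counted from 1 and no read count or signal. Per the file headers one was exported from Geneious 7.1.5. Trimmomatic and BWA are listed, with no version, per the submitters' processing notes. The authors' genome build is not given in the sources used here. Gaps between coding segments were computed in Python 3.11.15 with numpy 2.4.6, scipy 1.17.1 and matplotlib 3.10.9, and a simulated annotation with known introns was recovered before the real one was read. Successive coding segments that overlapped (18 cases) gave no gap. Sequences and their coordinates are from the RefSeq assembly ASM294v3, matched by gene identifier, for the 5109 genes with coding segments of the same lengths in both. Introns of under 20 bases were not read. Of the 5028 read, 3074 had the same coordinates in both annotations. Tests were not made, and intervals are exact binomial. Genes are named as the 10 with most introns, the 5 longest and shortest introns, differences between annotations, hosts of small RNAs, neighbours of the reporters and the listed genes. The start codon, microexon, unusual splice site and open-frame genes were named after their values were seen. The introns and gene lists were chosen with earlier results of these data known. From the lists dil1, prp39, prp40 and uaf1 were not matched by name.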

Additional observations from a re-analysis of the deposited data

How the results depend on the processing

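Of 45 alternatives, 37 left the value within its 95% interval or within 1.5 times the count and 8 moved it. Reversals numbered 0, but these counts, medians and shares have no direction to reverse. Keeping only coding lengths that are a multiple of 3 removed no intron, so that alternative could not move a value. The number of introns was 5030 with gaps of at least 20 bases, 5052 over all transcripts, 5066 in the ectopic-site annotation, 5089 in ASM294v3 and 5211 with introns outside the coding sequence. The share in the 5′ part of 3 equal parts of the coding sequence was 57.3%, against 53.9% with position in genomic bases and 61.4% with every gene counted once, where the median length became 60.5 bases. The phase column of the deposited annotation would place 100% in phase 0, since it reads 0 nearly throughout. The other alternatives that moved were CTAAC widened to 4 motifs (74.3%) and codons without the splice-site bases (22.4%), both chosen after seeing the data, as was the ASM294v3 phase column (41.6%), which changed nothing. Within 40 kb there were 25 introns near the endogenous reporter and 19 near the ectopic one.

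The annotations give 1 model per gene for nearly all genes, hold no evidence of splicing and no depth, and cannot show how often an intron is removed. No paired analysis was possible because no value per library was analysed. Gaps of 1 or 2 bases are too short to hold both GT and AG, and what they stand for was not tested.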

Other observations

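The wtf genes, a family of spore killer genes and related copies, stood out after the values were seen and were in no list. All 17 first transcripts named wtf had introns, 4.35 per gene against 0.988 over all genes, with 74 introns and a median length of 49 bases. Of these, 73 were in phase 1, and the exception was the last intron of wtf11, in phase 0. The first intron was the longest part, 71 to 238 bases, and the second measured 47 to 51 bases. The commonest ending, in 8 of the genes, was a pair of introns of 40 and 50 bases with an exon of 63 bases between them. Among all 329 genes with 4 or more introns, 18 had every intron in phase 1, and 15 of the 18 were wtf genes. The others were cdc4, a myosin light chain gene, fau1 and meu13, each with 4. The wtf genes are related copies, so they do not count as independent. In wtf4, wtf13, wtf19 and wtf23 the second transcript lacks the long first intron and has 4 introns in place of 5.

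Outside the coding sequence the annotation held 160 introns, 105 in 5′ ends and 55 in 3′ ends, with a median of 66 bases and the longest of 855 bases. In 78 genes these were the only introns.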
